A study of Mus musculus with 17 samples.

Results

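The subject is the effect of day on gene expression in the mouse lung, taken as 1 coefficient shared by Clic4 knockout (KO) and wild-type (WT) animals. All 17 libraries of the series entered 1 additive model with genotype and day as terms and no interaction, so that 11 day 14 libraries were compared with 6 day 0 libraries while genotype was held as a covariate. Of 19557 genes tested, 78 had an adjusted p under 0.05. None of them passed that threshold in WT or in KO alone with the same test, and these 78 genes with their day effects are described here, beside the neutrophil genes S100a8, S100a9 and Camp.

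Clic4 encodes chloride intracellular channel 4, and the series asks what the gene does in the host during spread of mammary tumours. The groups were WT day 0 (4 libraries), WT day 14 (6), KO day 0 (2) and KO day 14 (5), all of lung. The labelled age was 6 weeks at day 0 against 8 weeks at day 14, so day and age cannot be told apart. Every library carries the strain label FVB/6DT1, in which FVB is an inbred mouse strain and 6DT1 names a line of mouse mammary tumour cells. The labels do not say which treatment separates the days, how Clic4 was removed, or in which cells. The labels tie no library to a separate animal, so p-values measure the spread between these libraries, which may be technical. The series' design text gives other group sizes than the sample labels, which were followed.

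Libraries held 20607811 to 35743830 expected counts, 54146 genes were listed, and levels are given as CPM, counts scaled to a common library size by TMM. Clic4 was at 925 to 953 CPM in WT at day 0 and 927 to 1281 CPM in WT at day 14, against 324 to 328 CPM in KO at day 0 and 302 to 399 CPM in KO at day 14; the ranges of the genotypes did not overlap, and the pooled day effect on Clic4 was 0.11 (SE 0.0720, adjusted p 0.531). On unscaled library totals, the lung markers Sftpc of type 2 cells (10240 to 14430 CPM), Ager of type 1 cells (1511 to 1841 CPM) and Scgb1a1 of club cells (12890 to 19830 CPM) were high in every library. Casein gene Csn2, of mammary epithelium, had 1 count over all 17 libraries. Krt14, the other mammary marker looked at, had 481 counts and was present in all 17 (0.482 to 1.66 CPM at day 0, 0.299 to 2.66 CPM at day 14). Whether tumour cells were present was not tested. Several libraries stood apart. Interferon genes were high in WT day 14 library 5 and KO day 14 library 2 (Isg15 at 162 and 197 CPM, against 4.36 to 38.7 CPM in the others). KO day 14 library 5 had the highest levels of the blood gene Hba-a1 (15110 CPM on unscaled totals) and of S100a8 (133 CPM), and KO day 0 library 2 that of the brown fat gene Ucp1 (24.2 CPM).

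S100a8 and S100a9 form calprotectin, an abundant protein of the neutrophil cytosol, and Camp encodes cathelicidin, an antimicrobial peptide of neutrophil granules. Neutrophils leave the bone marrow on signals through the receptors Csf3r and Cxcr2 and are held there by the chemokine Cxcl12; the lung holds many of them in its vessels. The lung's frame consists of collagens, elastic fibres built on fibrillin, and basement membranes of collagen IV and laminin that peroxidasin crosslinks. In whole tissue, fewer cells of a type and less RNA per cell cannot be told apart.

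The upstream sequences of the 4 genes that follow are shown because they form the pairs on which the neutrophil results turn: S100a8 with S100a9, and the called receptor genes Mrgpra2a with Mrgpra2b, which are near-identical copies. Each is the 250 bases before the start of the gene in RefSeq, on build GRCm38.p6, written 5′ to 3′ on the gene's own strand. Capitals mark a match, on either strand, to a motif of C/EBP factors (TTGCNNAA) or to the D-box motif (TTATGTAA).
S100a8, chr3:90668821-90669070, plus strand: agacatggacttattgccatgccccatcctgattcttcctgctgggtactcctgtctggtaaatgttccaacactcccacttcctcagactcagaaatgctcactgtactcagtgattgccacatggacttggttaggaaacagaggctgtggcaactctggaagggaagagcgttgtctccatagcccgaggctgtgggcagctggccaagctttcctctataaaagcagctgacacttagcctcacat
S100a9, chr3:90695722-90695971, minus strand: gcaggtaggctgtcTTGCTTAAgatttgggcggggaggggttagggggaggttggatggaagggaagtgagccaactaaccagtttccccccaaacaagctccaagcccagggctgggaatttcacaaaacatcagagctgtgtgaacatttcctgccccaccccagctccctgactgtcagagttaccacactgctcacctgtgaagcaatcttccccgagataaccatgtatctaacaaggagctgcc
Mrgpra2a, chr7:47452165-47452414, minus strand: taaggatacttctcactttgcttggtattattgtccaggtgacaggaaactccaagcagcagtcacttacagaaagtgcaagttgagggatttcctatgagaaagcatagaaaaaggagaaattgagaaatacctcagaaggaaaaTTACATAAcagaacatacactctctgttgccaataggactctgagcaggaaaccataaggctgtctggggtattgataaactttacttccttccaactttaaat
The Mrgpra2b sequence, chr7:47489583-47489832 on the minus strand, is the same at all 250 positions. S100a9 holds the C/EBP letters 236 bases before its start, and 9.56% of the 32851 promoters in the RefSeq table hold that motif in a stretch of the same length. S100a8 holds neither motif in this window. The D-box letters lie 104 bases before the RefSeq start of both Mrgpra2a and Mrgpra2b, and 0.819% of all promoters hold them. Starts differ between annotations. GENCODE M21 has Mrgpra2b from 47463806 to 47528862, so the stretch shown lies inside that gene. It has S100a8 starting at 90668978, which is within the stretch shown for S100a8. A match is a description of letters and not of binding. Only 51 of the 78 called genes (65.4%) had an entry in the table, so no share over the called genes is given.

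The pooled day effect raised 35 genes (0.179% of those tested) and lowered 43 (0.22%), 78 in all (0.399%). Most changes were small. Among the higher genes the median log2 fold change was 0.53, a 1.45-fold rise, with 10 genes at 2-fold or more and the smallest at 0.18 (Tnfrsf1a, TNF receptor 1). Among the lower genes the median was -0.40, or 75.7% of the day 0 level, and none was halved; the largest was -0.96 (Muc5ac, a gel-forming airway mucin). By annotation 70 of the 78 were protein coding, 5 were processed pseudogenes, and 1 each was an antisense RNA, a processed transcript and a mitochondrial ribosomal RNA.

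With edgeR's quasi-likelihood test, 0 genes passed an adjusted p of 0.05 in WT alone and 0 in KO alone, while at an unadjusted p under 0.05 there were 1772 (9.06%) in WT, 1769 (9.05%) in KO and 2752 (14.1%) in the pooled fit. The lowest adjusted p of any gene was 0.0574 in WT and 0.0799 in KO. DESeq2 called 113 genes in WT, 93 in KO and 488 pooled, and limma-voom 1, 0 and 88. Under DESeq2, 75 of the 78 genes were again called by the pooled effect. At least 1 genotype alone called 52 of the 78, so that the words in neither genotype alone hold for the edgeR test. All 78 had the same direction in both genotypes. Their unadjusted p was under 0.05 for 78 in WT and 69 in KO; since the pooled fit used the same libraries, these counts describe the choice and do not support it. The median SE of the 78 log2 fold changes was 0.104 in WT, 0.135 in KO and 0.0829 in the pooled fit. The effect was larger in WT for 37 genes and in KO for 41.

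**Figure D1:**
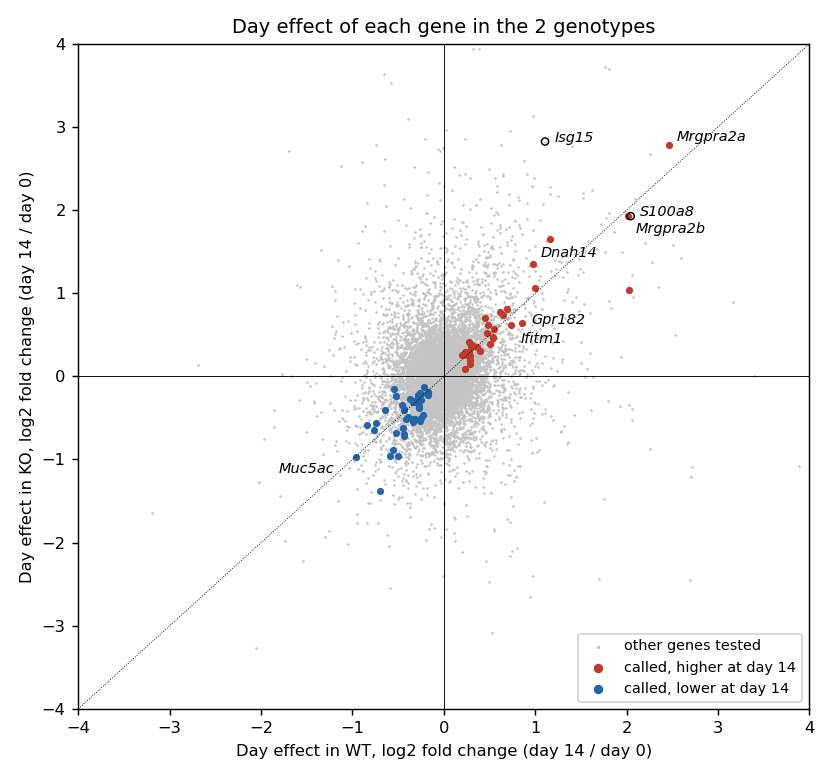
Log2 fold change of day 14 over day 0 in WT (x axis) and in KO (y axis) for each gene tested, with the 78 called genes in colour; 62 genes, 4 of them called, lie outside the axes, and the dotted line marks equal effects. Called genes lie in the quadrants of equal sign, S100a8 beside Mrgpra2b, and Isg15 above the line.

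The additive model assumes 1 day effect for both genotypes. The difference of the day effects between genotypes was tested as an interaction, in which edgeR called 0 genes, with 890 at an unadjusted p under 0.05 (4.55%); DESeq2 and limma-voom were not run for it. Of the 78 genes, 3 were among those 890, Tnfrsf1a and Zfp462 among them. Tnfrsf1a changed by 0.24 in WT and 0.09 in KO (interaction p 0.0372). For Zfp462, a zinc finger protein, the values were -0.54 in WT and -0.16 in KO (interaction p 0.0213). None of the 3 held after adjustment over all genes by edgeR. Called genes with 0 counts at day 0 could not show a difference in this test. For Dynap the day effects were 6.65 in WT and 2.17 in KO, yet its interaction p was 0.9996. Those of Gzmg and Gzmd were 0.9997 and 0.9998. Over all genes tested, 59.8% had the same sign in WT and KO, and the effects of the genotypes, which share no library, had a Spearman correlation of 0.242 across genes; over 10741 genes with at least 10 CPM on a day it was 0.385. Genes are not independent replicates, so these values carry no p.

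Ifitm1, an interferon-induced membrane protein that restricts viral entry, had the lowest adjusted p. The gene lies on chromosome 7, from 140967221 to 140969825 on the plus strand (GRCm38, as are all gene positions here). Its levels were 27.4, 24.3, 28.8 and 25.2 CPM in WT at day 0 and 28.8 and 26.7 CPM in KO at day 0. At day 14 they ran from 38.2 to 61.0 CPM in WT, with a median of 42.2 CPM, and were 46.2, 35.6, 40.7, 49.4 and 41.9 CPM in KO. Every day 14 library lay above every day 0 library. The mean went from 26.9 ± 1.84 CPM (SD, n = 6) to 43.5 ± 6.94 CPM (SD, n = 11), and the log2 fold change was 0.70 (SE 0.0928, 95% interval 0.50 to 0.89, adjusted p 0.0103), with 0.74 in WT and 0.62 in KO. The 2 libraries with high interferon genes were at 42.4 and 35.6 CPM, inside the range of the other day 14 libraries or below it. The other 77 called genes had adjusted p-values of 0.03 or more.

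Gpr182, a receptor of endothelial cells that binds and clears chemokines, stood at 16.97 to 27.9 CPM at day 0 (median 24.4) and 19.9 to 63.5 CPM at day 14 (median 32.2). Its days overlapped when the genotypes were joined but in neither genotype apart, since WT exceeded KO on both days: 26.0 ± 2.00 CPM (SD, n = 4) against 17.9 ± 1.35 CPM (SD, n = 2) at day 0. The pooled rise was 0.78 (SE 0.126, adjusted p 0.0327), with 0.86 in WT and 0.65 in KO, and the genotype term of the same model was -0.68 (KO over WT, adjusted p 0.0249). Cxcl12, a chemokine that Gpr182 can bind, had day and genotype terms of the opposite sign. It was at 329 to 485 CPM at day 0 (median 382) and 261 to 404 CPM at day 14 (median 330), and fell by 0.30 (SE 0.0613, adjusted p 0.0384); its genotype term was 0.33 (adjusted p 0.0229). Days overlapped for Cxcl12 in WT but not in KO. Gpr182 and Cxcl12 were put together after their values were seen, and a link between them was not tested.

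Both called iron transporters rose. Slc40a1, or ferroportin, the exporter of iron from cells, was at 6.74 to 13.1 CPM at day 0 (median 9.22) and 10.6 to 20.97 CPM at day 14 (median 16.1), and rose by 0.67 on the log2 scale (SE 0.133, adjusted p 0.0383). Slc25a28, or mitoferrin 2, which brings iron into mitochondria, was at 20.4 to 24.6 CPM at day 0 and 24.1 to 30.4 CPM at day 14, a change of 0.25 (SE 0.0465, adjusted p 0.0327). A single day 14 library, KO library 5 at 24.1 CPM, reached into the day 0 range of Slc25a28. These 2 genes were put together after their values were seen.

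Several regulators of transcription and signalling rose by less than 2-fold. Nfe2, a transcription factor of megakaryocytes and red cell precursors, went from 3.28 to 4.36 CPM at day 0 (median 3.41) to 4.36 to 7.81 CPM at day 14 (median 5.83); its change was 0.73 (SE 0.138, adjusted p 0.0337), and the days met at 4.36 CPM without overlap. Rasgrp4, an exchange factor that activates Ras in mast cells and neutrophils, lay at 13.3 to 15.9 CPM at day 0 and 16.2 to 28.3 CPM at day 14, without overlap, and rose by 0.51 (SE 0.0938, adjusted p 0.0327). Rrad, a small GTPase that restrains calcium channels, rose by 0.69 (SE 0.125), and Ifrd1, a transcriptional coregulator, by 0.49 (SE 0.0824), both at an adjusted p of 0.0327. For Ifrd1 only KO day 14 library 5, at 64.2 CPM, reached into the day 0 range of 51.2 to 67.6 CPM. Tnfrsf1a had the smallest change among the higher genes, from 125 to 137 CPM at day 0 to 141 to 158 CPM at day 14, with no overlap (0.18, SE 0.0357, adjusted p 0.0363). Bcl6, a transcriptional repressor, rose by 0.36 (SE 0.0765, adjusted p 0.0468), and the raft protein gene Flot1 by 0.28 (SE 0.0611, adjusted p 0.0483).

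Other named higher genes were Dnah14, an axonemal dynein (1.10, SE 0.206), Adrb3, the beta-3 adrenergic receptor (0.53, SE 0.101), Lonrf1 (0.56, SE 0.110), Pid1 (0.36, SE 0.0710), the histone gene Hist1h4i (0.51, SE 0.110) and Gcnt1, an O-glycan branching enzyme (0.32, SE 0.0701), with adjusted p-values from 0.0337 to 0.0490. KO day 14 library 5 was the lowest day 14 library for Adrb3 (14.2 CPM) and Pid1 (54.6 CPM), and without it their changes were 0.56 and 0.39. The mitochondrial ribosomal RNA mt-Rnr2 rose by 0.32 (SE 0.0681, adjusted p 0.0460), from a median of 277 CPM to 354 CPM. Mitochondrial genes together took 1.98 to 2.46% of the counts at day 0 and 2.05 to 2.58% at day 14, ranges that overlap; their part in the change of mt-Rnr2 was not tested. Among the higher genes not named so far were Serpinb2, an inhibitor of plasminogen activators, from a mean of 0.290 CPM to 0.921 CPM (1.67, adjusted p 0.0337), and Cdk2ap2, Dusp14, Cars, Mxi1, Pkp4, Ppp1r16b, AI429214 and 5430405H02Rik, from 0.22 to 0.54. F630028O10Rik is annotated as antisense and rose by 1.02 (SE 0.216, adjusted p 0.0483). The labels do not say that counting used strand, so reads from this gene and its partner on the other strand cannot be told apart.

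**Figure D2:**
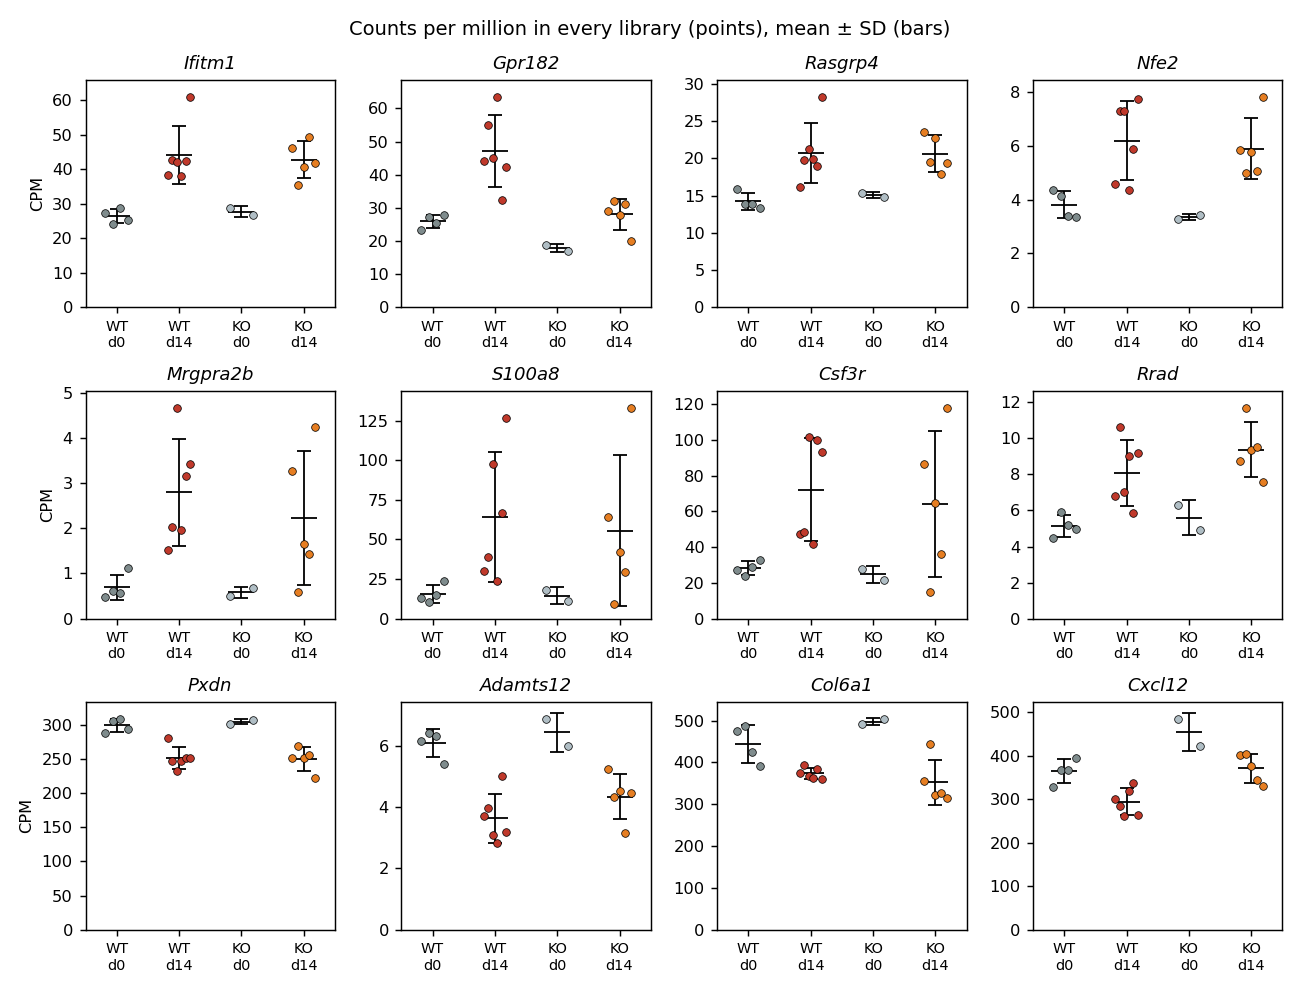
CPM of 12 genes in every library (points) by genotype and day, with the group mean and SD (bars), each y axis starting at 0. Ifitm1, Rasgrp4 and Nfe2 are higher and Pxdn and Adamts12 lower at day 14 without overlap of the days, while S100a8 and Csf3r are spread widely at day 14 and KO day 14 library 2 falls within or below the day 0 range.

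Called genes with almost no counts at day 0 made up the largest fold changes. Granzymes are serine proteases of cytotoxic lymphocytes. Gzmg had 0 counts in the 6 day 0 libraries and 142 counts at day 14, in 11 of 11 libraries, at least 26.3-fold higher when the day 0 group is given 3 counts in all as a floor. Gzmd had 0 and 76 counts, in 10 of 11 libraries, at least 14.1-fold higher. Gzmf, with 0 and 113 counts, was tested and did not pass (adjusted p 0.0637), and Gzme, with 0 and 44 counts, was removed by the filter on low counts. Transcripts of Gzmd and Gzmg are 88.7% identical and those of Gzmd and Gzme 93.8%, so the split of reads between them is uncertain. In the list of NK and cytotoxic cell genes edgeR called 0 of 14, against 0.399% of all genes. At an unadjusted p under 0.05 there were 0, against 14.1% of all genes, and the median was -0.06. Its members Gzma (0.08, adjusted p 0.932), Gzmb (0.25, adjusted p 0.814) and Prf1 (-0.07, adjusted p 0.935) were not called. Prl2c3, of the prolactin family, had 2 counts at day 0 and 697 at day 14, of which 608 were in WT and 342 in WT day 14 library 6 alone. It was called in 4 of the 17 fits that left out 1 library, with an adjusted p of 0.0577 without that library and up to 0.203 (without WT day 0 library 1, the 1 day 0 library with counts). Its transcript is 99.5% identical to that of Prl2c2. Dynap had 0 counts at day 0 and 81 at day 14, 79 of them in WT, so that KO adds little to its pooled call. Its genotype term in the additive edgeR model was -4.34 (KO over WT, adjusted p 0.0181). WT day 14 library 6 was highest for Gzmg, Gzmd, Prl2c3 and Dynap.

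Mrgpra2a and Mrgpra2b encode Mas-related receptors found on neutrophils. Mrgpra2b was at 0.481, 0.609, 0.576 and 1.11 CPM in WT and 0.494 and 0.670 CPM in KO at day 0. At day 14 it ran from 1.53 to 4.67 CPM in WT and was 3.27, 0.583, 1.66, 1.44 and 4.25 CPM in KO. WT days did not overlap, and in KO 1 day 14 library, number 2, fell among the day 0 values. The pooled change of Mrgpra2b was 1.99 (SE 0.374, adjusted p 0.0342), with 2.02 in WT and 1.93 in KO. Mrgpra2a changed by 2.55 (SE 0.504, adjusted p 0.0384), from 0 to 0.466 CPM at day 0 to 0.167 to 2.86 CPM at day 14. Their transcripts are 99.8% identical, so reads may be assigned to either, and they may count as 1 observation. With 1 library left out, Mrgpra2b was called in 9 of 17 fits (adjusted p up to 0.0948, without KO day 0 library 1) and Mrgpra2a in 6 of 17 (up to 0.101, without WT day 0 library 1).

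The markers S100a8, S100a9 and Camp changed by about as much as Mrgpra2b, yet none passed. S100a8 was at 13.2, 10.8, 14.6 and 23.5 CPM in WT and 18.2 and 10.9 CPM in KO at day 0. At day 14 it ran from 23.7 to 127 CPM in WT (median 52.8) and was 64.0, 9.12, 42.1, 29.7 and 133 CPM in KO. WT days did not overlap, whereas KO day 14 library 2 lay below every day 0 library. The pooled change was 2.00 (SE 0.527, 95% interval 0.87 to 3.13, adjusted p 0.113). S100a9 changed by 1.98 (SE 0.516, adjusted p 0.108), and Camp by 1.98 (SE 0.510, adjusted p 0.0946), from a median of 0.523 CPM to one of 1.54 CPM. The day effects in WT and KO were 2.05 and 1.93 for S100a8, 1.98 and 1.98 for S100a9, and 2.21 and 1.61 for Camp. An exact two-sided permutation test of log2 CPM, with days exchanged within genotype in all 4410 arrangements, gave p of 0.0120, 0.0102 and 0.0113 for the 3 genes, where the smallest possible is 0.000227; the genes were chosen with earlier results known.

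Genes most like S100a8 over the 17 libraries, once group means were taken out, were S100a9 (Spearman rho 0.990), the gelatinase Mmp9 (0.961), Retnlg (0.961), the lectin Clec4e (0.946) and the G-CSF receptor Csf3r (0.941). Csf3r was at 21.5 to 32.9 CPM at day 0 and 15.2 to 118 CPM at day 14, a change of 1.36 (SE 0.365, adjusted p 0.116). In the list of neutrophil surface genes 2 of 23 tested were called by edgeR, both higher: Mrgpra2a and Mrgpra2b, which may count as 1 observation. At an unadjusted p under 0.05, 15 were higher and 1 lower, and the median was 1.25. Over all genes tested 0.179% were called higher, and 7.32% were higher and 6.75% lower at the unadjusted threshold, with a median of 0.00. Cxcr2 changed by 1.82 (adjusted p 0.0633) and Il1f9 by 1.98 (adjusted p 0.0564). In the list of granule proteins 0 of 17 were called by edgeR, with 10 higher and 1 lower at the unadjusted threshold and a median of 0.96. Lcn2 was the lower one (-0.43, adjusted p 0.294), and Ltf, lactoferrin, was at 0.36 (adjusted p 0.629). Summed levels of the surface list ran from 856 to 1025 CPM at day 0 and from 906 to 1398 CPM at day 14. Hp alone had means of 650 CPM at day 0 and 703 CPM at day 14 (0.09), so the sum says little of the other members. By the mean log2 CPM of their members, both lists were led at day 14 by KO library 5, WT library 3 and WT library 6. KO library 5 was also highest in Hba-a1; without it S100a8 changed by 1.78 (adjusted p 0.0939).

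How far the called genes moved with the neutrophil granule list was described by ranking libraries within groups. That list also holds genes of other lists, among them Chil3 (alveolar macrophages, -0.12) and Ltf (airway secretory cells, 0.36), so its score is not a measure of neutrophils alone. The score of the granule list and the level of a gene, both with group means taken out, had a Spearman rho of 0.5 or more for 8 of the 35 higher genes (22.9%), against 5.78% of all genes tested. These were Gad1-ps (0.934), Mrgpra2a (0.853), F630028O10Rik (0.843), Mrgpra2b (0.821), Nfe2 (0.676), Gzmd (0.645), Slc40a1 (0.552) and Dnah14 (0.512). Mrgpra2a and Mrgpra2b, near-identical copies, may count as 1 observation here too. Some of them also reached 0.5 with scores of other lists, so the relation is not particular to neutrophil genes. Mrgpra2a (0.667) and Gad1-ps (0.542) did so with the T cell list, and Dnah14 (0.534) with the adipose list. With the granule score, Ifitm1 was at 0.466 and Gpr182 at -0.507. Of the 43 lower genes, 2 reached 0.5 (4.65%), Col17a1 (0.549) and Fgfr2 (0.505). At -0.5 or below were 2 of the higher genes (5.71%) and 1 of the lower genes (2.33%), Pxdn at -0.559, against 4.99% of all genes tested. The points are the same 17 libraries with the same scaling, and the part of neutrophil content in any of these changes was not tested.

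The lower genes begin with Pxdn. Pxdn, peroxidasin, which crosslinks collagen IV in basement membranes, had the lowest unadjusted p among them and shares its adjusted p with several others (chromosome 12, 29937608 to 30017658, plus strand). It was at 289, 306, 309 and 295 CPM in WT and 302 and 307 CPM in KO at day 0. At day 14 it ran from 232 to 281 CPM in WT (median 249) and was 251, 269, 252, 256 and 222 CPM in KO. No day 14 library reached the lowest day 0 library. The mean went from 301 ± 8.03 CPM (SD, n = 6) to 251 ± 15.7 CPM (SD, n = 11), a change of -0.26 (SE 0.0423, adjusted p 0.0327), with -0.25 in WT and -0.28 in KO. Cemip2, a cell surface hyaluronidase, went from 328 to 397 CPM at day 0 to 267 to 364 CPM at day 14 and fell by 0.33 (SE 0.0560, adjusted p 0.0327). WT day 14 library 5, at 364 CPM, was the highest of its group.

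Both called secreted metalloproteases of the ADAMTS family were lower. Adamts12 lay at 5.41 to 6.88 CPM at day 0 and 2.83 to 5.23 CPM at day 14, without overlap (-0.68, SE 0.118, adjusted p 0.0327), and Adamts17 at 7.09 to 12.1 CPM and 3.67 to 8.55 CPM (-0.72, SE 0.138, adjusted p 0.0342). Chsy3, which builds chondroitin sulfate chains, changed by -0.75 (SE 0.138, adjusted p 0.0327). Col6a1, a chain of collagen VI, was at 390 to 504 CPM at day 0 (median 481) and 314 to 445 CPM at day 14 (median 363), and changed by -0.34 (SE 0.0690, adjusted p 0.0383), with -0.25 in WT and -0.50 in KO. KO day 14 library 2 was the day 14 library that overlapped most, at 445 CPM. Fbn1, fibrillin 1, was at 138 to 197 CPM and then 110 to 167 CPM (-0.39, SE 0.0807, adjusted p 0.0446), again with KO day 14 library 2 the highest at day 14. Col17a1, a collagen of hemidesmosomes, changed by -0.42 (SE 0.0835, adjusted p 0.0383), and Antxr1, a receptor that binds collagen, by -0.24 (SE 0.0509, adjusted p 0.0475).

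Mucins, receptors and adhesion genes made up further named lower genes. Muc5ac was at 2.15 to 5.99 CPM at day 0 (median 2.75) and 0.896 to 3.21 CPM at day 14 (median 1.70), the largest fall at -0.96 (SE 0.184, adjusted p 0.0342). The highest day 0 value was that of KO library 2. Muc20, a mucin anchored in the membrane, lay at 9.44 to 12.1 CPM and 5.64 to 8.77 CPM without overlap (-0.45, SE 0.0876, adjusted p 0.0353). Fgfr2, the receptor that drives growth of lung epithelium, went from 156 to 186 CPM to 124 to 163 CPM (-0.28, SE 0.0579, adjusted p 0.0414). The retinoic acid receptor Rarb changed by -0.55 (SE 0.120, adjusted p 0.0491), the ephrin receptor Epha7 by -0.54 (SE 0.107, adjusted p 0.0383) and the neuronal adhesion gene Nrcam by -0.68 (SE 0.143, adjusted p 0.0446). Remaining named genes with a fall were Filip1, Tlcd2, Pspc1, Bfsp1, Atp6v1c2 and Sh3gl2, from -0.42 to -0.73, and the RNA-binding protein gene Hnrnpa1 at -0.19. Among the remaining lower genes, all of them outside the naming rule, were the myelin and membrane gene Pmp22 (-0.19, adjusted p 0.0327), the filopodial myosin Myo10 (-0.34, adjusted p 0.0383), the surface carboxypeptidase Cpm (-0.41, adjusted p 0.0446), Bmper, which binds BMPs (-0.32, adjusted p 0.0446), the calcium channel Cacna1d (-0.32, adjusted p 0.0483), and Mpzl1, Dpysl3, C1qtnf6, Zbed4, Dph6, Etl4, Arhgef10, Serinc5 and 6030408B16Rik, from -0.18 to -0.42. Closest to the threshold were Gcnt1 (adjusted p 0.0490) and Rarb (0.0491) inside it and Stx4a (0.16, adjusted p 0.0513) and Kcnj15 (-0.32, adjusted p 0.0513) outside it.

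**Figure D3:**
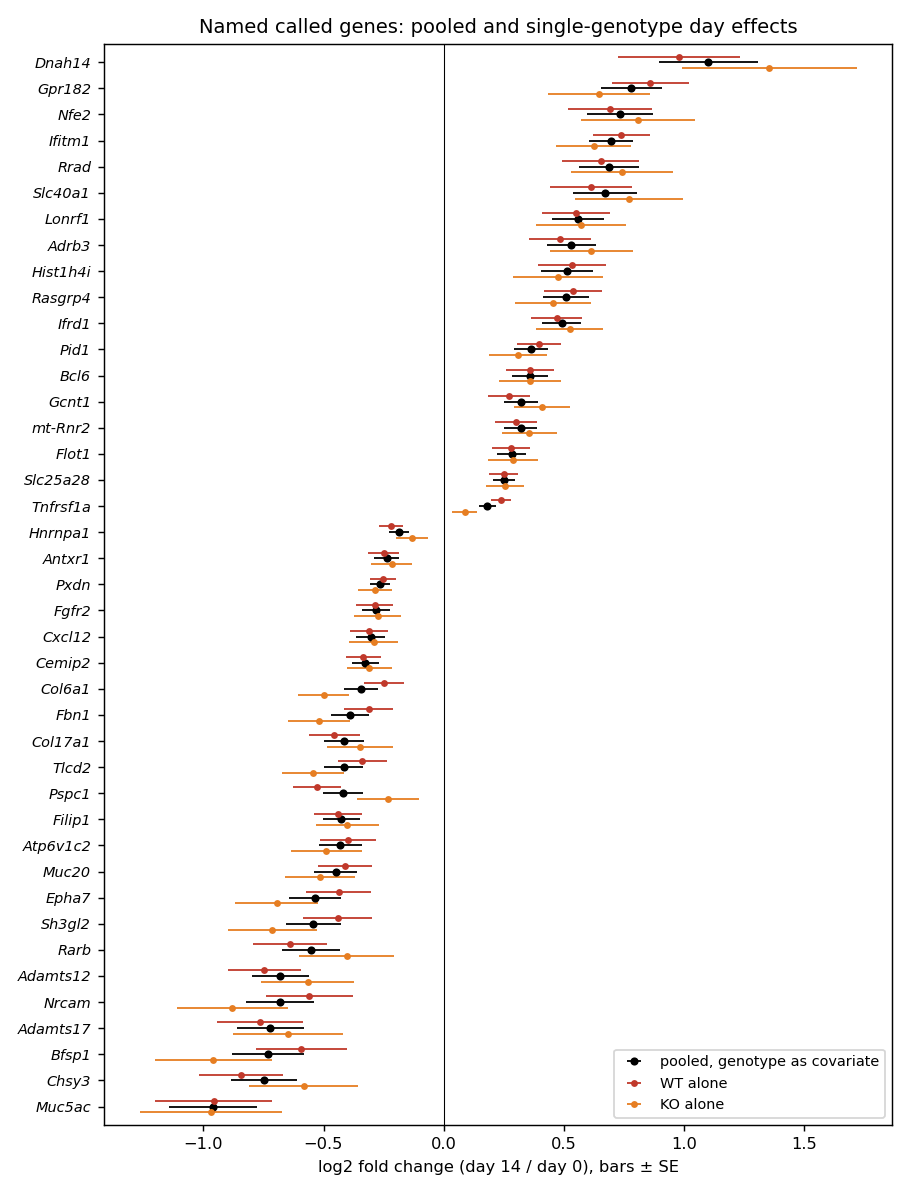
Log2 fold change of day 14 over day 0, with SE bars, for the named called genes changed by less than 1.5 on the log2 scale: pooled (black), WT alone (red) and KO alone (orange). Every pooled value lies between the values of the genotypes and has a shorter bar than either; Ifitm1 is at 0.70 and Pxdn at -0.26.

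Days that do not overlap are a plain view of the same data. All 11 day 14 libraries lay on 1 side of all 6 day 0 libraries for 17 of the 78 genes, and for 0.169% of all genes tested. Days were apart in WT for 48 of the genes (background 2.58%), in KO for 59 (background 11.8%), and in both genotypes with 1 direction for 31 (background 0.373%). The genes were chosen on the same contrast, so nothing is read from these counts.

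Matrix genes that were not called had mostly negative values. In the list of fibroblast and interstitial matrix genes 1 of 23 was called, lower (Col6a1), 14 were lower and 0 higher at an unadjusted p under 0.05 by edgeR, and the median was -0.21 (-0.14 in WT and -0.32 in KO). Over all genes 0.22% were called lower, and 6.75% were lower and 7.32% higher at the unadjusted threshold. These shares are also the background for the next 2 lists. The 2 other chains of collagen VI were close, Col6a2 at -0.37 (adjusted p 0.0549) and Col6a3 at -0.30 (adjusted p 0.0597), and Col5a1, of collagen V, was at -0.37 (adjusted p 0.0579). Col1a1 was at -0.41 (adjusted p 0.151) and Col3a1 at -0.45 (adjusted p 0.217). The elastic fibre list had 1 of 14 called, lower (Fbn1), and 6 lower at the unadjusted threshold, with a median of -0.12; elastin itself, Eln, was at -0.47 (adjusted p 0.133). None of 20 basement membrane genes was called by edgeR, 13 were lower and 0 higher at the unadjusted threshold, and the median was -0.15, with Lamb3 at -0.22 (adjusted p 0.0714). Pxdn is in none of these lists. The fibroblast transcription factor Tcf21 was at 0.21 (adjusted p 0.486) and the growth factor receptor gene Pdgfra at -0.03 (adjusted p 0.875). Summed levels of the fibroblast list ran from 6710 to 8765 CPM at day 0 and from 6051 to 8483 CPM at day 14. With the score of that list, taken as for the neutrophil score, 7 of the 43 lower genes had a rho of 0.5 or more (16.3%, against 6.21% of all genes tested), namely Col6a1 (0.828; it is in that list, and 0.802 with the score of the other 22 genes), Fbn1 (0.821), Antxr1 (0.772), Dpysl3 (0.767), Rarb (0.635), Bmper (0.608) and Adamts17 (0.522). Fgfr2 (-0.615) and Atp6v1c2 (-0.686) were on the other side. Pxdn was at 0.142 and Col17a1 at -0.338.

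Counts at an unadjusted p under 0.05 in the lists that follow stand beside 6.75% lower and 7.32% higher over all genes. Cholesterol synthesis genes, 18 in the list, all had negative values, 12 of them under that threshold, with none called by edgeR and a median of -0.21 (-0.15 in WT and -0.25 in KO). The lowest adjusted p was that of Dhcr7 (-0.34, adjusted p 0.0597); Sqle was at -0.35 and Cyp51 at -0.46. Type 2 cell genes had 0 of 18 called, 7 lower at the unadjusted threshold and a median of -0.12. In the glucocorticoid response list 0 of 17 were called and 2 were lower at the unadjusted threshold, and every value was negative, with a median of -0.38. Platelet genes had 0 of 15 called, 6 higher at the unadjusted threshold, 15 positive values and a median of 0.39 (0.21 in WT and 0.61 in KO). For monocyte genes the figures were 0 of 19 called, 5 higher at the unadjusted threshold and a median of 0.28. The clock list had 0 of 21 called and 6 higher at the unadjusted threshold, among them Cry1 (0.59, adjusted p 0.147), and collection times are not in the labels.

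**Figure D4:**
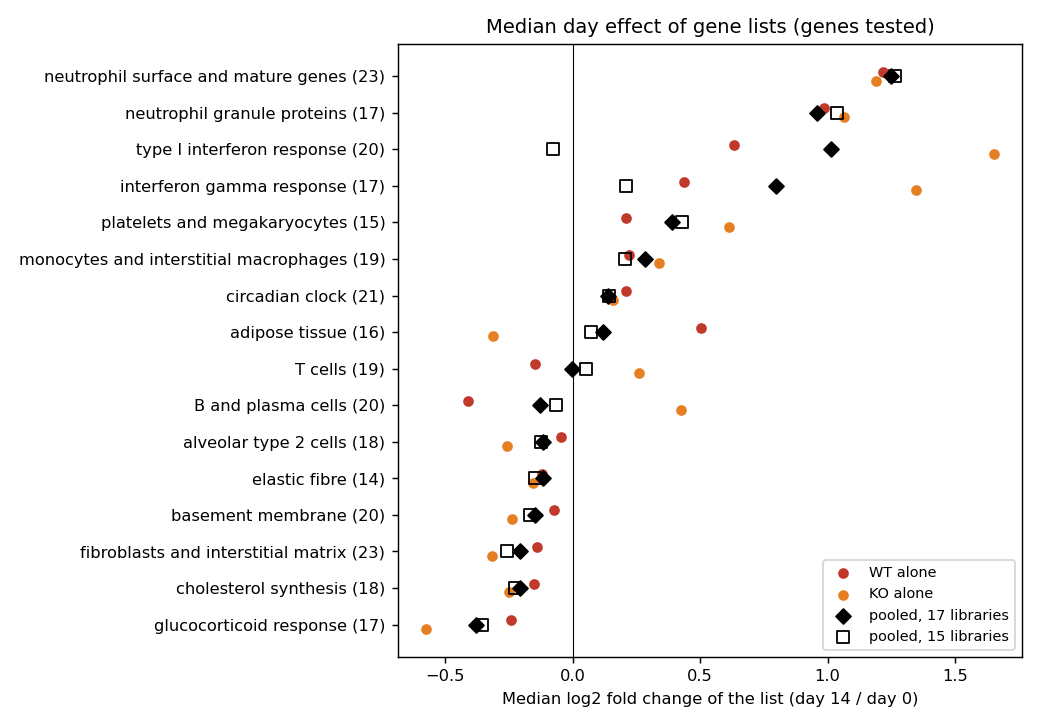
Median log2 fold change of day 14 over day 0 in 16 gene lists (number of genes tested in brackets): pooled over 17 libraries (filled diamonds), WT (red), KO (orange), and pooled over 15 libraries without the 2 libraries high in interferon genes (open squares). Medians with 17 and 15 libraries were 1.25 and 1.26 (neutrophil surface), 0.96 and 1.04 (neutrophil granule), -0.21 and -0.26 (fibroblast matrix), and -0.21 and -0.23 (cholesterol). The type I interferon list goes from 1.01 to -0.08. KO day 14 library 2, 1 of the 2 left out, had the lowest neutrophil scores and the highest fibroblast matrix score at day 14. Leaving it out is thus no check on those lists.

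The type I interferon list had positive values for all 20 genes and a median of 1.01 (0.63 in WT and 1.65 in KO), but edgeR called 0 of them and 0 were under an unadjusted p of 0.05. Isg15 was at 4.36 to 38.7 CPM at day 0, and at day 14 at 6.32 to 21.7 CPM in 9 libraries and at 162 and 197 CPM in the other two. Without those 2 libraries, chosen after the data were seen, the median of the list was -0.08, so the positive pooled median rested on them. The medians of the genotypes were then -0.25 in WT and 0.35 in KO. WT day 0 library 4, the next highest in this list (Isg15 at 38.7 CPM), was kept. For the interferon gamma list the median went from 0.80 to 0.21 (0.05 in WT and 0.64 in KO). Genes of T and of B cells had medians of opposite sign in WT and KO: -0.15 and 0.26 for the T cell list and -0.41 and 0.42 for the B cell list, with 0 genes called by edgeR and 0 under the unadjusted threshold; whether the genotypes differ in these medians was not tested. The adipose list was at 0.50 in WT and -0.31 in KO, and KO day 0 library 2 had the highest score in it. Of its genes 1 of 16 was called, higher (Adrb3), against 0.179% of all genes. Adrb3 was at 0.48 in WT and 0.61 in KO, unlike the list, and its rho with the adipose score was -0.206. Of the 78 called genes, 7 are in at least 1 of the 47 lists.

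Of the 5 called processed pseudogenes, Gm8543 is 95.6% identical to actin Actg1, Gm7083 96.9% to the splicing factor gene Srsf3, Gm9396 99.3% to the ribosomal protein gene Rpl12, Gm7331 99.5% to Gm11808 and Gad1-ps 94.2% to Gad1. The 4 former were lower, by 0.51 to 0.96 on the log2 scale, and Gad1-ps was higher by 1.31. None of the parent genes was called; Rpl12 was at 0.00 (adjusted p 0.996) and Actg1 at -0.27 (adjusted p 0.413). Reads of such pairs can be split wrongly, so the levels of the pseudogenes are uncertain.

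The number of calls rested on single libraries. Without WT day 0 libraries 1 to 4 it was 1, 34, 2 and 25, and without WT day 14 libraries 1 to 6 it was 29, 41, 42, 13, 310 and 5. Without KO day 0 libraries 1 and 2 it was 4 and 0, and without KO day 14 libraries 1 to 5 it was 1, 132, 66, 35 and 163. In the edgeR fit with 0 calls, 2663 genes still had an unadjusted p under 0.05. The count thus moved by more than 1.5 times in 16 of 17 fits, 13 with fewer calls and 3 with more. Of the 78 genes, 55 were called in fewer than 0.5 of the 17 fits, with a median of 6 fits and a lowest of 3. All 78 kept their sign in the 17 fits, with an unadjusted p of at most 0.00435; since they were chosen on these libraries, this describes them and does not support them. Ifitm1 was called in 16 of the fits, more than any other gene, with changes from 0.62 to 0.72, and no gene was called in all 17.

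**Figure D5:**
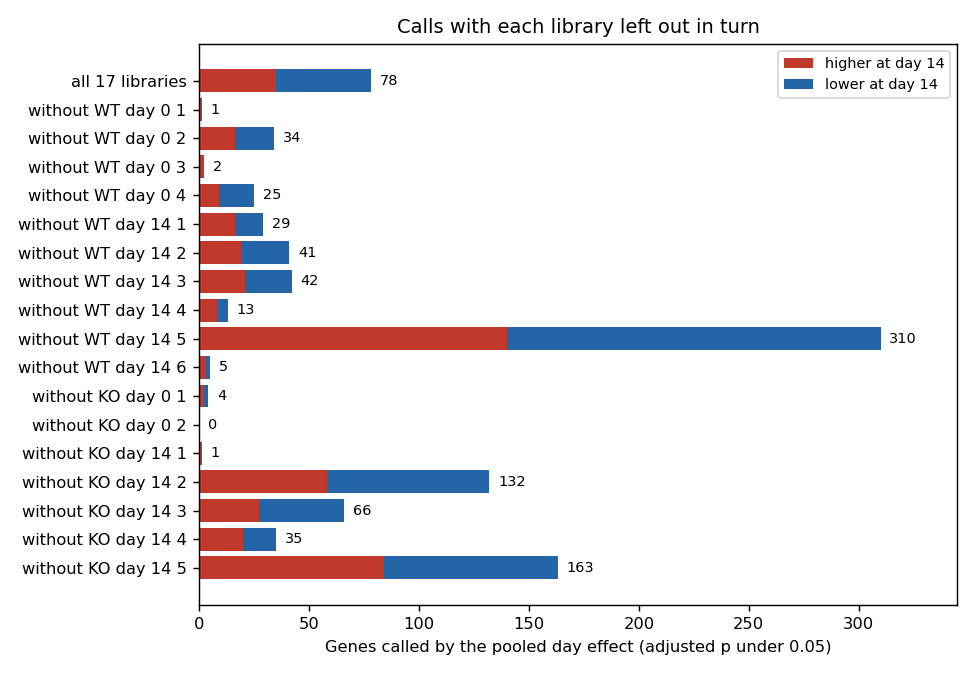
Number of genes called by the pooled day effect, higher (red) and lower (blue) at day 14, with all 17 libraries and with each library left out in turn. Calls range from 0 without KO day 0 library 2 to 310 without WT day 14 library 5.

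With both libraries high in interferon genes left out, 309 of 19565 genes were called (1.58%), 139 higher (0.71%) and 170 lower (0.869%), and all 78 were among them; 258 were called in neither genotype alone. Neutrophil surface genes then had 8 of 23 called, all higher, among them Cxcr2 (1.84, adjusted p 0.0144), Il1f9 (2.09, adjusted p 0.0121), Il1b (1.34, adjusted p 0.0267) and Csf3r (1.38, adjusted p 0.0322). S100a9 was called (2.05, adjusted p 0.0471), while S100a8 (2.09, adjusted p 0.0503) and Camp (2.08, adjusted p 0.0665) were not. Fibroblast matrix genes had 7 of 23 called, all lower: Col1a1, Col3a1, Col5a1, Col6a1, Col6a2, Col6a3 and Loxl1, from -0.33 to -0.56. Of the basement membrane list 5 of 20 were called, all lower, with Col15a1 at -0.54 (adjusted p 0.0137) and Npnt at -0.30 (adjusted p 0.0113), and of the cholesterol list 4 of 18, Idi1, Cyp51, Msmo1 and Dhcr7. The cold-induced RNA-binding protein gene Rbm3 was at -0.44 and Tgfb2 at -0.43, both with an adjusted p of 0.00411. Of the 2 libraries, KO day 14 library 2 had the lowest neutrophil scores and the highest fibroblast matrix score at day 14. Leaving it out is thus no check on those lists. As the 2 libraries were picked from the data, these calls describe 15 libraries and do not stand in for the fit of all 17.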

How the data were processed

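RNA was sequenced from 17 mouse lung libraries. The authors deposited expected counts per gene and library, made before deposit by aligning and counting the reads, and 1 joint table of FPKM values. Per the submitters' processing notes the tools were STAR 2.5.3, RSEM 1.3.0 and limma 3.38.3 on mm10, and kits are RNeasy and TruSeq v4 per the labels' protocols. The annotation release is not given in the sources used here. The unit of the counts is not in the file headers; 13.86 to 17.14% of the genes of a library were not whole.

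Counts were rounded to whole numbers, scaled by TMM (factors 0.977 to 1.01) and filtered with filterByExpr by group, leaving 19557 of 54146 genes. edgeR 4.0.16 (R 4.3.3; glmQLFit, robust, glmQLFTest) fitted genotype and day; effects of each genotype and the interaction came from a fit of the 4 groups. The common biological coefficient of variation was 0.152. Adjusted p-values are Benjamini-Hochberg over all genes tested, and a gene is called under 0.05. SE is the log2 fold change over the square root of F. Gene lists, 47 in all, were counted and not tested.

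Named by rule were up to 15 genes each way with the largest change and at least 1 CPM, without predicted genes, clone names, receptor segments and pseudogenes; called list members; the genes beside the threshold; those most like S100a8; and S100a8, S100a9, Camp and Clic4. Other names were chosen after values were seen. Members and lists were chosen with earlier results of these data known. Alternatives were DESeq2 1.42.0, limma-voom 3.58.1, other scaling and filters, log2(FPKM + pseudocount) of the deposited FPKM values, and leaving out libraries. Floors of 3 counts cover counting error only. The code was tested on simulated data. Coordinates are of GENCODE M21 on GRCm38, the assembly mm10 names, which holds 54079 of the gene IDs. The values of 1 called gene are not reported here.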

Additional observations from a re-analysis of the deposited data

Results flagged for a closer look

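Within groups of 4 to 6 libraries, 1 library lay far from the others in 11 of 177 pairs of gene and group looked at; chance flags about 1 in 20. WT day 14 library 6 was apart for Ifitm1 (61.0 CPM, high), Muc20 (5.64 CPM, low), Prl2c3 (11.6 CPM, high) and Stx4a (74.8 CPM, high). KO day 14 library 5 was apart for Adrb3 (14.2 CPM), Pid1 (54.6 CPM) and Sh3gl2 (3.02 CPM), each time the lowest of its group. KO day 14 library 2 was apart for Isg15 (197 CPM, high). At day 0, WT library 1 was apart for Prl2c3 (0.0566 CPM, the 1 library with counts), and WT library 2 for Stx4a (67.0 CPM, high) and Retnlg (3.74 CPM, low).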

How the results depend on the processing

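The 78 pooled calls (35 higher, 43 lower) became 488 (257 and 231) with DESeq2, 38 (15 and 23) with equal weight per genotype, 20 (7 and 13) on log2(FPKM + 1), 23 (11 and 12) on log2(FPKM + 0.1) and 4 (0 and 4) without a filter on FPKM, where limma had 1279 higher and 1929 lower genes at an unadjusted p under 0.05. DESeq2 size factors (74), no filter on counts (79), at least 1 CPM (81), limma-voom (88), a fit that was not robust (63) and no genotype term (66) stayed within 1.5 times. Calls in neither genotype alone were 352 with DESeq2, 38 with equal weight, and 20, 23 and 4 on FPKM. Another definition of a shared effect, an unadjusted p under 0.05 in both genotypes with the same sign, gave 314 genes, which need not be pooled calls. WT alone had 113 calls with DESeq2, 3 with its size factors, 5 without a filter and 1 with limma-voom. KO alone had 93 with DESeq2, 1 in the fit that was not robust, 4, 4 and 19 on the 3 FPKM scales, and 2 on KO libraries only. The interaction had 1 call at 1 CPM and 1 in the fit that was not robust.

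Leaving out 1 library gave 0 to 310 pooled calls (0 to 140 higher, 0 to 170 lower), 0 to 290 in neither genotype, 0 to 22 in WT, 0 to 12 in KO and 0 to 1 in the interaction. Without the 2 libraries high in interferon genes, added after seeing the data, pooled calls were 309 (139 and 170), 258 in neither genotype, 55 in WT and 19 in KO. The cause of these shifts was not tested. Clic4 reversed from 0.11 to -0.0313 with no genotype term. No paired analysis was possible because the labels give the groups no shared replicate numbers.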
